A study of Mus musculus with 55 samples.

Results

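The 9 genes described here encode enzymes, and 1 regulatory kinase, that handle glucose in the liver: the hexokinases Hk1 and Hk2, the catalytic subunit of glucose-6-phosphatase (G6pc), aldolase A (Aldoa), the pyruvate kinases Pkm and Pklr, phosphoenolpyruvate carboxykinase (Pck1), fructose bisphosphatase (Fbp1) and pyruvate dehydrogenase kinase (Pdk4). They were selected by symbol, out of 34490 symbols shared by both batches of count files, with the levels of these same libraries already known. Their differences between genotypes and between damaged and undamaged livers are therefore given as descriptions, with standard errors and without p-values. The comparison of the sexes did not enter the selection and was tested for them, as were 92 other genes of the same pathway. The lists of these 92 genes were also chosen with earlier results of these data known.

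RNA of adult mouse liver (C57BL/6) was sequenced from R&Z flox mice, whose Rnf43 and Znrf3 genes carry floxed exons for the RING domain, and from R&Z del mice, in which these exons were deleted in hepatocytes. Both genes encode ubiquitin ligases that remove WNT receptors from the cell surface. In the first batch the deletion was induced with tamoxifen through Alb-CreERT2, which is driven by the albumin promoter. In the second it was induced with tamoxifen at 7 months and otherwise with an AAV8 virus that expresses Cre from the hepatocyte promoter TBG, with a null virus in the controls. By the study's account, control littermates of the tamoxifen induction received sunflower oil alone, and tamoxifen was given again in the CCl4 model. With such controls the deletion and the tamoxifen cannot be told apart. Undamaged livers were collected at 1 month (1M, 4 R&Z flox and 4 R&Z del libraries), 3 months (3M, 5 and 2) and 7 months (7M, 5 and 5). These are months after deletion, which the study induced in adult mice, and not ages. Livers after repeated doses of CCl4, a toxin that kills pericentral hepatocytes (chronic damage, CD), were collected at 4 days (2 and 2), 50 days (1 and 2) and 170 days (2 and 2) of recovery, all in males of the first batch. Livers after partial hepatectomy (PHx) were collected at 7 days (3 and 3) and 21 days (3 and 3), all in the second batch. They were of males, except for 1 R&Z del library at 21 days, which was of a female. The study's methods state in one place that control littermates in the CCl4 model received vehicle only, whereas the labels name the controls as chronic damage libraries too. 5 libraries whose titles and characteristics contradict each other were put in no group. The R&Z del library at 3M and 1 R&Z flox library at 7M in batch 1 were grouped by their characteristics, which their titles contradict. The sources used here do not give the feeding state or the hour of collection.

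In all 53 libraries were read, of which 48 had a group, with 11721687 to 32168223 counts and a median of 22488266 in these 48. Values are CPM, counts per 1000000 counts of the library, and fold changes compare R&Z del with R&Z flox on the log2 scale after TMM scaling, with a standard error (SE). A gene was called at a Benjamini-Hochberg adjusted p under 0.1 in edgeR's quasi-likelihood test and a log2 fold change beyond 1, while after PHx the genotypes were compared without adjustment, at p under 0.05 and a log2 fold change beyond 1. Batch 1 libraries had 15657 to 18545 symbols with a count and batch 2 libraries 11171 to 13874, and genes of low level in batch 2 were often at 0 in some libraries of a group and well above 0 in others. Counts on the whole gene do not check the excision of a few exons: median Rnf43 was 36.5 CPM in R&Z del and 11.8 in R&Z flox libraries, and median Znrf3 45.3 and 17.8. The skeletal muscle gene Myh4 and the fat cell genes Plin1 and Lep were at 0 in all 48. Other genes of these lists were counted, and the fat cell gene Fabp4 was at 0 in 2 libraries (median 4.90 CPM). The fat cell list (6 genes) summed to between 0 and 61.8 CPM and the skeletal muscle list (7 genes) to between 0 and 8.70. In bulk liver, fewer cells of a type cannot be told apart from less RNA per cell.

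Hepatocytes both use and make glucose. Glucose is phosphorylated on entry and released again by glucose-6-phosphatase, while Pklr, the liver form of pyruvate kinase, and the pair Pck1 and Fbp1 carry the flow between sugar phosphates and pyruvate in opposite directions. Hk1, Hk2, Pkm and Aldoa are the forms used by most other tissues and by growing cells. Pdk4 blocks the entry of pyruvate into the mitochondrial citric acid cycle and is induced by fasting, as are G6pc and Pck1, which follow glucagon and insulin.

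The promoters of 4 members are shown because these members were past the rule and lower in R&Z del after CCl4. They were taken from RefSeq on GRCm38.p6, from 250 bases before to 50 after the annotated start, 5′ to 3′ on the strand of the gene, with motifs in capitals. G6pc lies on the plus strand at chr11:101367466-101367765, Pck1 on the plus strand at chr2:173152823-173153122, Pklr on the plus strand at chr3:89136373-89136672 (the downstream of its starts) and Fbp1 on the minus strand at chr13:62888233-62888532.
G6pc: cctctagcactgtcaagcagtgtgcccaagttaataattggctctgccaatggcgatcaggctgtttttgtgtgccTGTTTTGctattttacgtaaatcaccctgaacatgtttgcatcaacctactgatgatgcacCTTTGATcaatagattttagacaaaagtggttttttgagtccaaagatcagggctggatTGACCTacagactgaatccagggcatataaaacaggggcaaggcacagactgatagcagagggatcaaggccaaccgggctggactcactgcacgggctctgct
Pck1: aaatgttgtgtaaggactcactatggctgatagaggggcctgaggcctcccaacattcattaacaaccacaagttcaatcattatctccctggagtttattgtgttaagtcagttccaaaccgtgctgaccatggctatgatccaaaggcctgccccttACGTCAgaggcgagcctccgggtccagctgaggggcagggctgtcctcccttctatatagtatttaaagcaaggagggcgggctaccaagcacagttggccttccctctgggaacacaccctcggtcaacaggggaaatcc
Pklr: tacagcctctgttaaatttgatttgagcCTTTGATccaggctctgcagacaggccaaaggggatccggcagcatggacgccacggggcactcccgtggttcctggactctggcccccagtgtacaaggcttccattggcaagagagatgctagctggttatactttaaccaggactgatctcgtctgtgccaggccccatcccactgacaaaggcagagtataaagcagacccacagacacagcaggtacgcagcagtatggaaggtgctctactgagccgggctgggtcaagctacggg
Fbp1: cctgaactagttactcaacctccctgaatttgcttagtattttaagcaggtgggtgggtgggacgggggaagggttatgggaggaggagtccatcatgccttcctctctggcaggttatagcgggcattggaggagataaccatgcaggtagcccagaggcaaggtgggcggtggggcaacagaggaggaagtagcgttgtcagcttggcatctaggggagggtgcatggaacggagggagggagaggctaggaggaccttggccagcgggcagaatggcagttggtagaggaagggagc
The letters searched on both strands were ACGTCA (a cAMP response element core), TGTTTAC and TGTTTTG (forkhead), CACGTG (E-box), CTTTGAT (TCF/LEF) and AGGTCA (nuclear receptor element). Pck1 held ACGTCA at position -91, counted from the start of the gene. G6pc held TGTTTTG at -174, CTTTGAT at -113 and AGGTCA on the minus strand at -54, where it reads TGACCT on the printed strand. Pklr held CTTTGAT at -222 from this start, and Fbp1 held none of the 6. Over 32851 RefSeq promoters of the same length, ACGTCA was in 7.51%, TGTTTTG in 6.28%, CTTTGAT in 3.73%, AGGTCA in 16.3%, TGTTTAC in 3.65% and CACGTG in 7.15%. All 9 members matched a promoter, 14 in all. ACGTCA was in those of 3 members (Hk2, Pck1, Pkm), TGTTTTG in 1 (G6pc), CTTTGAT in 2 (G6pc, Pklr), AGGTCA in 4 (Aldoa, G6pc, Pklr, Pkm), and TGTTTAC and CACGTG in 0. The matches describe letters in these windows and nothing of the factors.

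Per kilobase of exon, Fbp1, Pck1 and G6pc stood highest among the members and the hexokinases lowest, in the same order in both batches. In batch 1 the median level was 897 CPM per kb for Fbp1 (chromosome 13, 62864753 to 62888298 on mm10, as in the files), 203 for Pck1 (chromosome 2, 173153073 to 173159274) and 76.7 for G6pc (chromosome 11, 101367716 to 101377903). It was 47.1 CPM per kb for Aldoa (chromosome 7, 126795234 to 126800994), 31.5 for Pklr (chromosome 3, 89136122 to 89146815) and 2.90 for Pkm (chromosome 9, 59656576 to 59679372). The lowest were Pdk4 at 1.44 CPM per kb (chromosome 6, 5483351 to 5496278), Hk1 at 0.376 (chromosome 10, 62268855 to 62379920) and Hk2 at 0.127 (chromosome 6, 82725025 to 82774454). Over the 18 grouped libraries of batch 1, the lowest Fbp1 level (522 CPM per kb) was above the highest Pck1 level (443), while the ranges of all further neighbours in this order overlapped. In batch 2 the medians were 759 CPM per kb for Fbp1, 187 for Pck1, 87.5 for G6pc, 42.7 for Aldoa and 21.5 for Pklr, and then 2.02 for Pkm, 0.887 for Pdk4, 0.112 for Hk1 and 0.0238 for Hk2. Hk2 was at 0 counts in 9 and Hk1 in 12 of the 30 libraries of batch 2, and in 0 of the 18 of batch 1. Among the counterparts in batch 1, G6pc3, the ubiquitous glucose-6-phosphatase, had 5.17 CPM per kb, Pck2, the mitochondrial carboxykinase, 2.17 and Fbp2, the muscle fructose bisphosphatase, 0.203.

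At 4 days after CCl4, G6pc and Pck1, which release and make glucose, were low in R&Z del livers, and Hk1 was high. G6pc had 309.8 and 368 CPM in the R&Z flox libraries and 47.1 and 50.8 in the R&Z del libraries (339 ± 41.4 and 48.9 ± 2.64, SD, n = 2 each). The groups were far apart, and the log2 fold change was -3.28 ± 0.51 (SE). Pck1, the enzyme that commits carbon to gluconeogenesis, had 619 and 980.2 CPM in R&Z flox and 253 and 464 in R&Z del, a log2 fold change of -1.63 ± 0.50. Hk1, the hexokinase of most tissues, had 1.56 and 2.84 CPM in R&Z flox and 6.98 and 13.7 in R&Z del, a log2 fold change of 1.72 ± 0.45. These 3 members were past the rule, 1 of 9 higher and 2 of 9 lower, beside 10.3% of all 11358 genes tested that were called higher and 4.95% lower. Since this contrast was known at the selection, nothing is read from these shares. Over all alternative settings the log2 fold change lay between -3.42 and -3.12 for G6pc, between -2.23 and -1.19 for Pck1 and between 1.27 and 2.19 for Hk1.

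The other members at 4 days were not past the rule. Fbp1 had 1759 and 1851 CPM in R&Z flox and 1329 and 1507 in R&Z del (log2 fold change -0.83 ± 0.27), and Pklr had 77.5 and 98.9 against 60.2 and 75.9 (-0.86 ± 0.31). Both were lower in each R&Z del library than in each R&Z flox library. Hk2, the hexokinase of muscle and growing cells, had 0.999 and 1.90 CPM against 4.43 and 4.56 (1.15 ± 0.60). Pkm had 13.7 and 17.9 CPM against 22.9 and 54.5 (0.78 ± 0.55), and Aldoa 104 and 136 against 183 and 279 (0.44 ± 0.29). Pdk4 had 4.66 and 4.67 CPM against 7.12 and 9.85 (0.36 ± 0.82). In CPM the groups of all 9 members were apart, 5 higher and 4 lower in R&Z del, but so were those of 66.7% of all genes in the higher direction and 10.7% in the lower. The R&Z del libraries at 4 days had TMM factors of 1.34 and 1.51. In TMM-scaled CPM the groups were apart in 7 members, Hk1, Hk2 and Pdk4 higher and G6pc, Pklr, Pck1 and Fbp1 lower, beside 33.6% of all genes higher and 35.1% lower. On that scale Aldoa (108 and 137 against 136 and 184) and Pkm (14.2 and 18 against 17 and 36.1) overlapped.

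**Figure D1:**
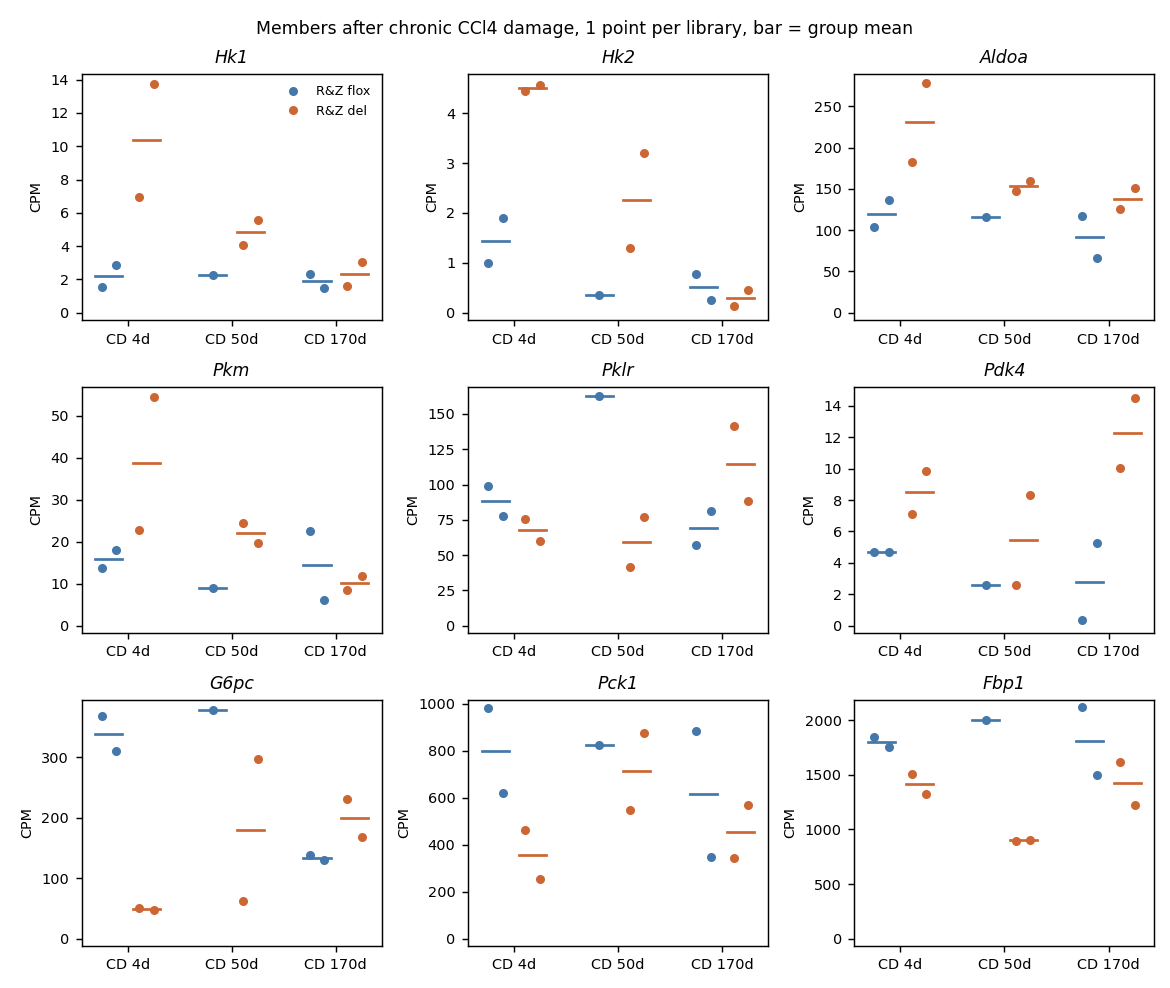
CPM of the 9 members (vertical axes, linear) at 4, 50 and 170 days after CCl4 (CD 4d, CD 50d and CD 170d), with 1 point per library and a bar at the group mean, R&Z flox in blue and R&Z del in orange. G6pc in R&Z del lay at 47.1 and 50.8 CPM at 4 days, below both R&Z flox libraries, and at 168 and 230.5 CPM at 170 days, above both.

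Markers of other cell types differed between the same libraries. The cholangiocyte list (7 genes, among them Krt19, Epcam and Sox9) summed to between 86.4 and 156 CPM in R&Z flox and between 3492 and 6229 in R&Z del at 4 days, with 5 of the 5 genes tested called higher. The stellate and fibroblast list (8 genes) summed to between 83.0 and 127 CPM and between 288 and 837, with 3 of 8 called higher, and the proliferating cell list (6 genes) to between 33.4 and 69.2 and between 169.6 and 199, with 3 of 5 tested called higher. The hepatocyte list (8 genes, among them Alb and Ttr) summed to between 128286 and 142472 CPM in R&Z flox and between 111650 and 125339 in R&Z del, and 2 of 8 were called lower. The endothelial list had 2 of 7 called lower, the macrophage list 1 of 7 tested and the erythroid (red blood cell) list 1 of 5, each with 0 higher. The lymphocyte list had 1 of 6 tested called higher and 0 lower, and the fat cell and skeletal muscle lists had 0 called. Of the clock list (12 genes) 3 of 11 tested were called higher and 1 lower. The fasting-induced list (14 genes) summed to between 4479.8 and 4918 CPM in R&Z flox and between 3738 and 3789 in R&Z del, with 3 of 14 called lower and 0 higher. The fed-induced list (11 genes) summed to between 13200 and 14438 and between 7952 and 10923, with 0 called higher and 2 lower. The part of cell makeup or feeding in the members' differences was not tested.

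At 50 days after CCl4, where R&Z flox was a single library, Pklr and Fbp1 were past the rule. Pklr had 163 CPM in R&Z flox and 41.7 and 77.2 in R&Z del (log2 fold change -1.75 ± 0.36), and Fbp1 had 2002 against 897 and 904 (-1.39 ± 0.32). Neither R&Z del library reached the R&Z flox value. These were 0 of 9 members higher and 2 of 9 lower, beside 2.64% of all genes called higher and 2.94% lower. With the 3 libraries of conflicting labels added to the groups of their characteristics, the log2 fold change was -0.80 for Pklr and -0.50 for Fbp1. G6pc had 379 CPM in R&Z flox, and 62.6 and 297 in R&Z del, which lay far from each other (-1.43 ± 0.55). Pck1 had 823 CPM against 549 and 875 (-0.49 ± 0.59), with the R&Z flox value between the others. Hk2 had 0.36 CPM against 1.29 and 3.21 (2.33 ± 0.91), Hk1 2.24 against 4.08 and 5.59 (0.85 ± 0.57) and Pkm 8.88 against 19.6 and 24.5 (1.10 ± 0.71). Aldoa had 116 CPM against 148 and 159.8 (0.16 ± 0.35), and Pdk4 2.60 against 2.62 and 8.30 (0.75 ± 1.07). Other lists differed between the same libraries. The fed-induced list summed to 11497 CPM in R&Z flox and to between 6006 and 12829 in R&Z del, with 10 of 11 genes lower and 2 called lower. The cholangiocyte list summed to 99.4 CPM and to between 578 and 1131 (1 of 5 tested called higher), the proliferating cell list to 5.48 and to between 16.2 and 23.02 (2 of 5 tested called higher) and the stellate and fibroblast list to 62.7 and to between 185 and 293 (1 of 8 called higher). The macrophage list summed to 492 CPM and to between 311 and 533 (1 of 7 tested called lower), and the hepatocyte list to 133859.5 and to between 97041 and 130322 (1 of 8 called lower). Their part in the Pklr and Fbp1 values was not tested.

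At 170 days no member was past the rule, beside 0.414% of all genes called higher and 0.211% lower. G6pc had 130.3 and 138 CPM in R&Z flox and 168 and 230.5 in R&Z del (log2 fold change 0.36 ± 0.47), and Pklr 57.3 and 81.5 against 88.1 and 141 (0.52 ± 0.31). In CPM each R&Z del library was above each R&Z flox library for both, the reverse of 4 days, but the groups of 40.6% of all genes were apart in that direction and 7.25% in the lower. In TMM-scaled CPM, where 19.1% of all genes were apart higher and 18.6% lower, G6pc stayed apart (156 and 164 against 172 and 239) and Pklr overlapped (67.9 and 97.3 against 90.7 and 146). The labels put both R&Z flox libraries at 170 days, while the study's sample list gives them at 50 and 170 days. Taken as R&Z flox at 50 days, they gave a log2 fold change at 50 days of -0.68 for G6pc and -1.12 for Pklr. Pck1 had 348 and 886 CPM against 342 and 569 (-0.64 ± 0.49), Fbp1 1498 and 2125 against 1227 and 1615 (-0.55 ± 0.27) and Aldoa 66.2 and 117 against 125 and 151 (0.38 ± 0.29). Aldoa was apart in CPM and overlapped in TMM-scaled CPM. Fbp1 overlapped in CPM and was apart in TMM-scaled CPM, lower in R&Z del (1790 and 2515 against 1262 and 1673). Pdk4, the brake on pyruvate oxidation, had 0.339 and 5.28 CPM against 10.02 and 14.5 (1.94 ± 0.85), the groups being apart. Hk1 (1.5 and 2.34 CPM against 1.61 and 3.02), Hk2 (0.258 and 0.780 against 0.137 and 0.464) and Pkm (6.14 and 22.6 against 8.41 and 11.9) overlapped between the genotypes. The cholangiocyte list summed to between 56.0 and 244 CPM in R&Z flox and between 244 and 293 in R&Z del.

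**Figure D2:**
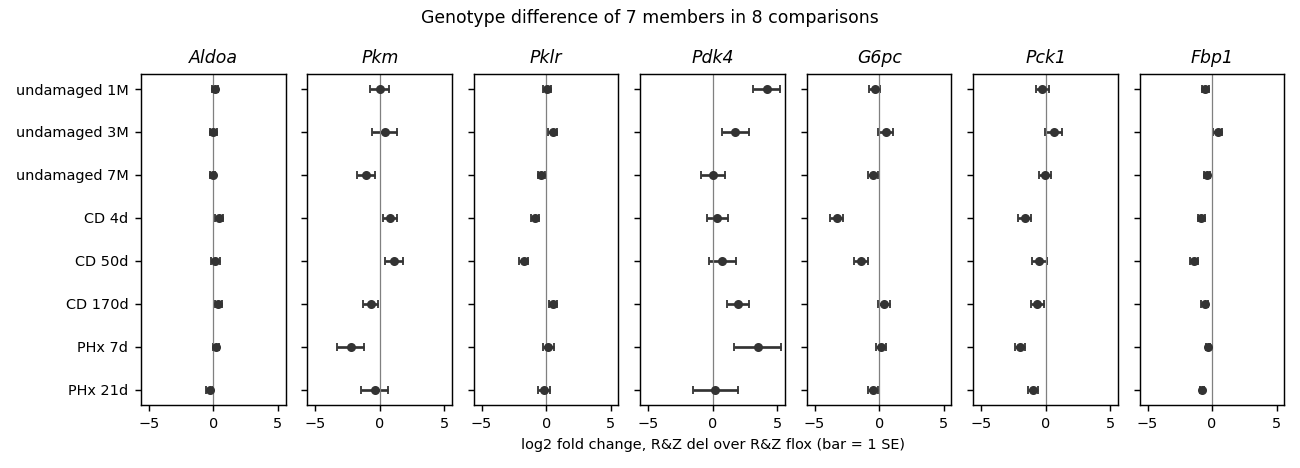
Log2 fold change in R&Z del relative to R&Z flox (horizontal axes, bar of 1 SE) for 7 members in the 8 comparisons of undamaged, CCl4 and PHx livers, without Hk1 and Hk2, which were at 0 counts in many libraries. G6pc was at -3.28 at 4 days after CCl4 and at 0.36 at 170 days, and Pck1 at -1.99 at 7 days after PHx.

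After PHx, Pck1 and Pkm were past the rule at 7 days, both lower in R&Z del. Pck1 had 475, 499.7 and 721 CPM in R&Z flox and 128, 158 and 169.5 in R&Z del (565 ± 135 and 152 ± 21.5, SD, n = 3 each). The groups were well apart, with a log2 fold change of -1.99 ± 0.37, and over all alternative settings it lay between -2.09 and -1.78. Pkm, the pyruvate kinase of most tissues, had 7.91, 9.11 and 12.8 CPM against 0.176, 0.400 and 6.35, which were 3, 7 and 117 counts in R&Z del (-2.26 ± 1.05). Its value lay between -5.12 and -1.72 over the alternatives, the former without the R&Z del library of 117 counts. These were 0 of 9 members higher and 2 lower, at an unadjusted threshold that called 1.67% of all 12773 genes higher and 2.33% lower. At an adjusted p under 0.1 with the same fold threshold, 16 of all genes were higher and 19 lower at 7 days in edgeR, and 19 higher and 23 lower at 21 days.

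The other members at 7 days after PHx were not past the rule. Fbp1 had 1325, 1357 and 1365 CPM in R&Z flox and 1005, 1202 and 1308 in R&Z del (log2 fold change -0.30 ± 0.16), and Aldoa 83.7, 93.1 and 97.7 against 105, 110.1 and 126 (0.23 ± 0.25). G6pc had 152, 198 and 415 CPM against 289, 290.1 and 325 (0.15 ± 0.37), within the R&Z flox range, and Pklr 34.6, 67.0 and 98.4 against 49.4, 80.8 and 105 (0.15 ± 0.43). Pdk4 had 0, 0.366 and 2.37 CPM against 2.55, 4.68 and 24.5 (3.48 ± 1.81), and Hk1 and Hk2 overlapped. The groups were apart in 5 members, Aldoa and Pdk4 higher and Pkm, Pck1 and Fbp1 lower, beside 7.36% of all genes apart in the higher direction and 4.37% in the lower. In TMM-scaled CPM Aldoa and Pdk4 overlapped and the other 3 stayed apart, beside 5.48% and 5.76% of all genes. The clock list (12 genes, among them Dbp and Per1) summed to between 116 and 219 CPM in R&Z flox and between 86.3 and 149.6 in R&Z del, with 1 of 12 called lower and a median log2 fold change of -1.38. The macrophage list (8 genes) summed to between 125 and 405 CPM and between 92.9 and 266, with 1 of 8 called lower, and the fasting-induced list to between 2676 and 3744 and between 2945 and 4406, with 0 of 14 called. Their part in the Pck1 and Pkm values was not tested.

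At 21 days after PHx both Pck1 and Fbp1 were lower in every R&Z del library. Of the 3 R&Z del libraries 1 was of a female (Pck1 632 and Fbp1 1052 CPM), while all 3 R&Z flox libraries were of males. The log2 fold changes come from a fit with a term for sex. The CPM values, the shares of genes apart and the folds at a floor are not adjusted for sex. Pck1 had 744, 806 and 1027 CPM in R&Z flox and 377, 561 and 632 in R&Z del (log2 fold change -1.0 ± 0.37), and Fbp1 1349.7, 1376 and 1519 against 904, 909 and 1052 (-0.79 ± 0.16). Neither was past the rule. These were the 2 of 9 members whose groups were apart in the lower direction, beside 3.51% of all genes in CPM and 5.43% in TMM-scaled CPM, where both stayed apart (8.06% and 5.36% of all genes were apart in the higher direction). G6pc had 122, 269 and 337 CPM against 124, 142 and 184 (-0.45 ± 0.38), and Pklr 27.6, 38.3 and 95.8 against 38.9, 54.5 and 54.9 (-0.18 ± 0.44). Hk1 was at 0 counts in all 3 R&Z flox libraries and at 0.275, 2.66 and 10.8 CPM in R&Z del (5 to 162 counts), and was past the rule. With the R&Z flox libraries set at a floor of 3 counts each, its mean was at least 24.9-fold higher in R&Z del, and at least 8.0-fold without the R&Z del library of 162 counts, for a gene at 0 in 12 of the 30 libraries of this batch. This was 1 of 9 members higher and 0 lower, beside 3.05% of all genes higher and 3.52% lower. Pkm (6.55, 7.65 and 10.5 CPM against 1.46, 9.22 and 10.8), Aldoa (85.0, 86.8 and 137 against 57.9, 103 and 118), Pdk4 (0, 0 and 12.98 against 2.72, 2.97 and 5.26) and Hk2 (0, 0 and 3.41 against 0, 0.330 and 1.48) overlapped between the genotypes. The cholangiocyte list summed to between 51.9 and 155 CPM in R&Z flox and between 24.4 and 68.2 in R&Z del, with 1 of 5 tested called higher and 3 lower, and the hepatocyte list to between 123493 and 140326 and between 80206 and 111773, with 1 of 8 called lower. The clock list summed to between 307 and 423 CPM and between 459 and 561, and the fasting-induced list to between 3823 and 4669 and between 3517 and 5387, each with 1 gene called lower. Their part in the Pck1, Fbp1 and Hk1 values was not tested.

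**Figure D3:**
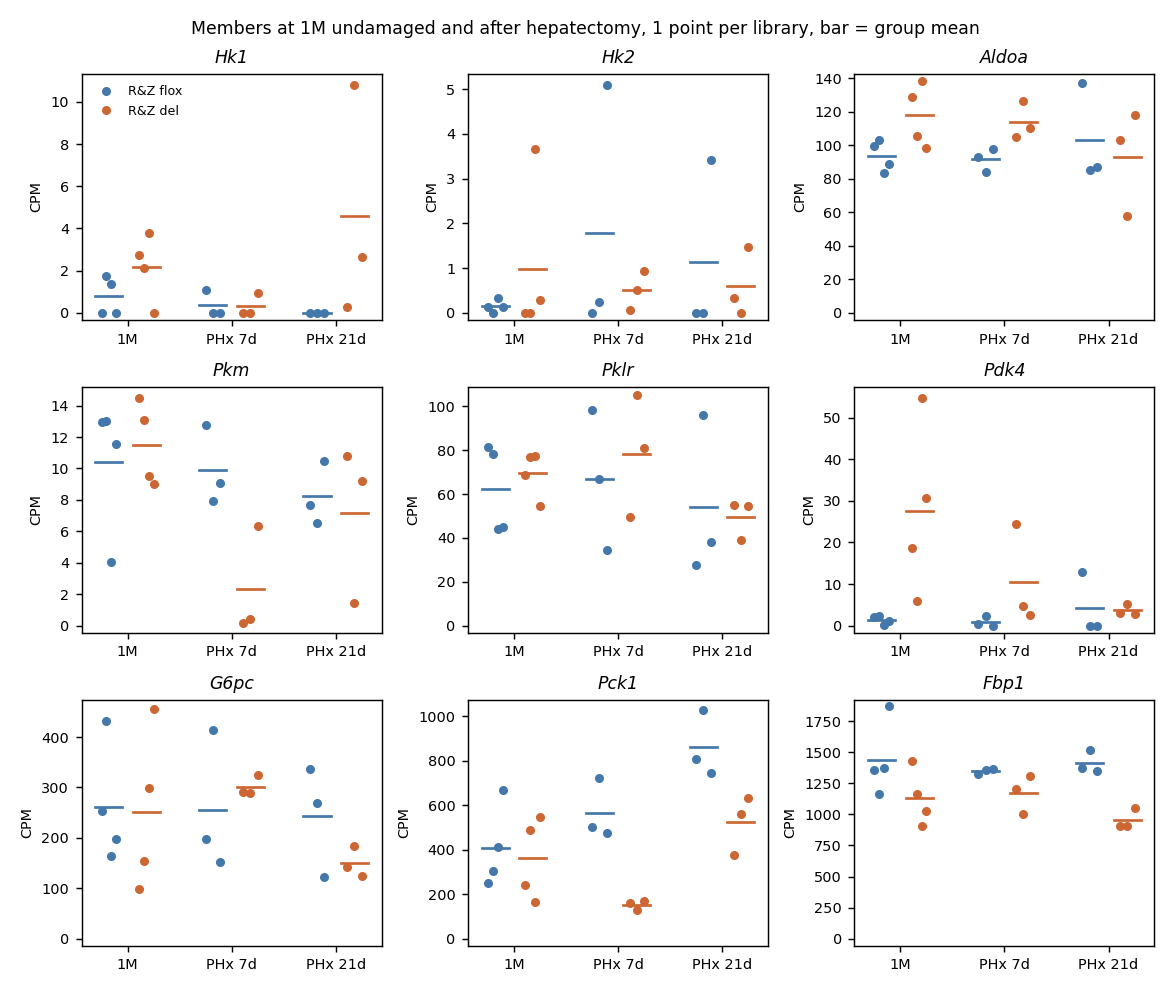
CPM of the 9 members (vertical axes, linear) in undamaged livers at 1M and at 7 and 21 days after PHx in the second batch, with 1 point per library and a bar at the group mean, R&Z flox in blue and R&Z del in orange. Pck1 at 7 days lay between 475 and 721 CPM in R&Z flox and between 128 and 169.5 in R&Z del, and Pdk4 at 1M between 0.0423 and 2.21 and between 5.91 and 54.7.

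In undamaged livers no member was past the rule at 1M, 3M or 7M, beside 0.218%, 0.156% and 0.249% of all 12848 genes called higher and 0.218%, 0.07% and 0.202% lower. At 1M, Pdk4 had 0.0423, 1.04, 2.07 and 2.21 CPM in R&Z flox and 5.91, 18.7, 30.7 and 54.7 in R&Z del (1.34 ± 1.01 and 27.5 ± 20.7, SD, n = 4 each). It was the 1 member of 9 whose groups did not overlap at 1M, beside 4.14% of all genes apart in the higher direction and 1.42% in the lower, with a log2 fold change of 4.19 ± 1.05. It stayed apart in TMM-scaled CPM, beside 2.36% of all genes. Pck1 had 248, 302, 409 and 666 CPM in R&Z flox and 166, 243, 489 and 546 in R&Z del (-0.26 ± 0.50). G6pc had 164, 197, 252 and 433 CPM against 98.7, 155, 298 and 456 (-0.35 ± 0.45), and Fbp1 1163, 1359, 1371 and 1874 against 911, 1025, 1167 and 1429 (-0.53 ± 0.28). All 3 overlapped between the genotypes, as did Pkm (4.02 to 13 CPM against 9.01 to 14.5), Pklr (44.0 to 81.6 against 54.7 to 77.5), Aldoa (83.4 to 103 against 98.1 to 138), Hk1 (0 to 1.73 against 0 to 3.80) and Hk2 (0 to 0.338 against 0 to 3.66). The clock list summed to between 41.2 and 245 CPM in R&Z flox and between 121 and 541 in R&Z del at 1M, and the hepatocyte list to between 126913 and 150379 and between 77387 and 96121. Their part in the Pdk4 values was not tested.

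At 3M and 7M each batch was read apart. At 3M, Pdk4 had 0.750 and 7.18 CPM in R&Z flox and 3.14 in R&Z del in batch 1, and 4.09, 7.00 and 8.51 against 30.8 in batch 2 (log2 fold change 1.74 ± 1.05 over both). The R&Z del library was thus above the controls in batch 2 and between them in batch 1. Pck1 had 265 and 278 CPM against 1169 in batch 1 and 466, 543 and 563 against 309.6 in batch 2 (0.63 ± 0.67), above the controls in one batch and below them in the other. G6pc had 224 and 302 CPM against 158 in batch 1 and 86.1, 95.4 and 163 against 161 in batch 2 (0.51 ± 0.57). With 1 R&Z del library in each batch at 3M, the spread within this group cannot be told apart from the batch, and the one of batch 1 was the 1 female among the grouped libraries at 3M, set against 2 male controls. At 7M, G6pc had 128 and 131 CPM in R&Z flox and 179 and 224 in R&Z del in batch 1, and 121, 351 and 704.5 against 135, 233 and 354 in batch 2 (-0.48 ± 0.41). Pdk4 at 7M had 0.618 and 6.23 CPM against 2.62 and 6.74 in batch 1 and 1.52, 1.59 and 4.81 against 0.930, 3.16 and 6.32 in batch 2 (0.03 ± 0.96). Both genes overlapped between the genotypes in batch 2. The remaining log2 fold changes at 3M and 7M lay between -1.66 ± 1.75 (Hk2 at 7M) and 0.91 ± 2.32 (Hk1 at 3M). Pck1 at 7M spanned 334 to 1591 CPM in R&Z flox and 311 to 1522 in R&Z del (-0.05 ± 0.45), and Fbp1 1388 to 2150.3 and 825 to 2112 (-0.39 ± 0.25).

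In the comparisons run against undamaged livers of the same genotype no member was past the rule. R&Z del at 4 days and both genotypes at 50 days after CCl4 were not compared in this way. In R&Z flox at 4 days after CCl4, set against R&Z flox at 3M in the first batch, Pck1 had 619 and 980.2 CPM against 265 and 278 (log2 fold change 1.44 ± 0.48), Pkm 13.7 and 17.9 against 6.32 and 7.32 (1.09 ± 0.57), and Pklr 77.5 and 98.9 against 126 and 149 (-0.77 ± 0.35). G6pc had 309.8 and 368 CPM against 224 and 302 (0.26 ± 0.44). Both R&Z del libraries at 4 days lay below every undamaged library of that batch for G6pc. In this comparison 1.74% of all 12608 genes were called higher and 1.26% lower. By the study's timeline 4 days of recovery came sooner after induction than 3M, so damage and time cannot be told apart here. At 170 days against 7M no gene of 12608 was called higher or lower in either genotype (0% each, with 697 genes in R&Z flox and 856 in R&Z del at an unadjusted p under 0.05 in edgeR), and the members lay between -0.79 and 2.24 in log2 fold change.

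The livers after PHx were set against those at 1M, which are shared between the time points. Called were 0.0235% of 12773 genes higher and 0% lower in R&Z flox at 7 days, 0.00783% each way in R&Z del at 7 days and 0% at 21 days in both genotypes, where 885 and 627 genes were at an unadjusted p under 0.05 in edgeR. Pck1 was at 0.70 ± 0.37 and 1.38 ± 0.38 in log2 fold change in R&Z flox at 7 and 21 days, and at -1.03 ± 0.36 and 0.65 ± 0.34 in R&Z del. At 7 days it was thus above 1M in R&Z flox and below it in R&Z del, and the difference between these was not tested. Pdk4 in R&Z del was at -1.85 ± 1.69 and -2.82 ± 1.70.

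**Figure D4:**
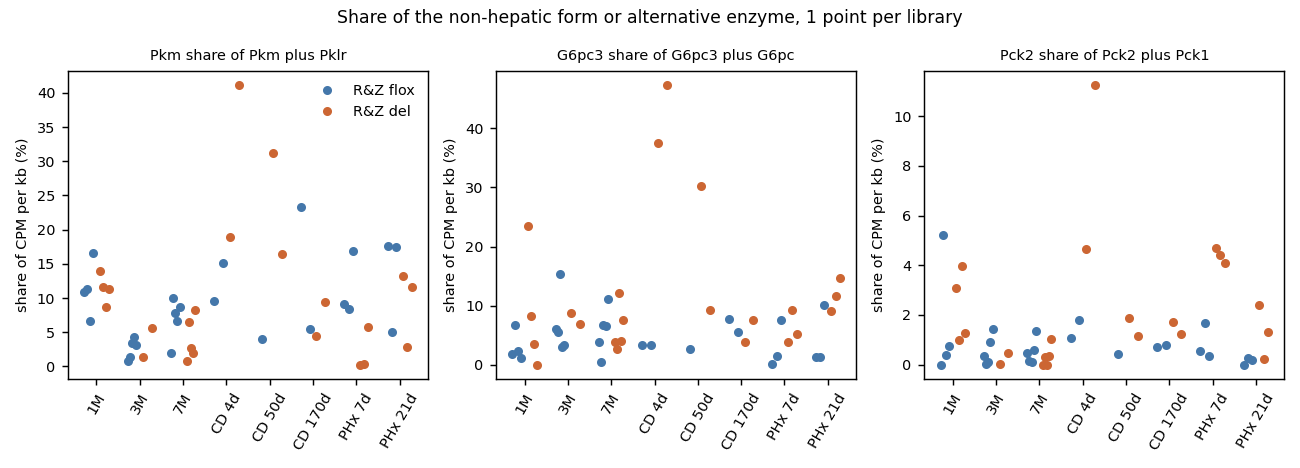
Share of the less hepatic form in the sum of a pair, in percent of CPM per kb (vertical axes, which do not all start at 0), with 1 point per library in each group, R&Z flox in blue and R&Z del in orange. The G6pc3 share was 37.5% and 47.3% in R&Z del at 4 days after CCl4 and 3.34% and 3.42% in R&Z flox.

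The share of the less hepatic form within a pair, per kilobase, put the liver and other isoforms on 1 scale. At 4 days after CCl4 the share of G6pc3 in G6pc plus G6pc3 was 3.34% and 3.42% in R&Z flox and 37.5% and 47.3% in R&Z del, and at 50 days 2.74% against 9.22% and 30.3%. The share of Pkm in Pkm plus Pklr was 9.63% and 15.2% against 18.9% and 41.2% at 4 days, and 4.03% against 16.4% and 31.2% at 50 days. At both times each R&Z del library was above each R&Z flox library, with 2 libraries against 2 at 4 days and 2 against 1 at 50 days. How often the shares of other gene pairs were so far apart was not counted. Each share holds the values of its members given above and is not a separate result. At 170 days the Pkm share was 5.50% and 23.3% against 4.40% and 9.47%, and at 7 days after PHx it was lower in R&Z del, at 0.274%, 0.293% and 5.72% against 8.35%, 9.11% and 16.9%. The Pck2 share in Pck1 plus Pck2 was 1.09% and 1.78% against 4.66% and 11.3% at 4 days after CCl4, and 0.336%, 0.546% and 1.67% against 4.09%, 4.43% and 4.68% at 7 days after PHx. The cholangiocyte list was higher in R&Z del at 4 and 50 days after CCl4, like the Pkm share, and summed to 29.6 to 81.8 CPM against 75.6 to 111 in R&Z flox at 7 days after PHx. At 170 days it was 244 to 293 CPM in R&Z del against 56.0 to 244 in R&Z flox, while the Pkm share overlapped. Its part was not tested.

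The counterparts were not among the members and were tested. They too were chosen with earlier results of these data known, which their adjusted p-values do not take into account. G6pc3 had 7.31 and 8.92 CPM in R&Z flox and 20.8 and 28.9 in R&Z del at 4 days after CCl4 (log2 fold change 1.11 ± 0.27, adjusted p = 0.0253 in edgeR). It rose in the libraries where G6pc was low. Pck2 was at 0.81 ± 0.33 at 4 days (adjusted p = 0.115). In R&Z flox at 4 days after CCl4, Pck2 was higher than in undamaged R&Z flox livers at 3M (1.62 ± 0.39, adjusted p = 0.0618).

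**Figure D5:**
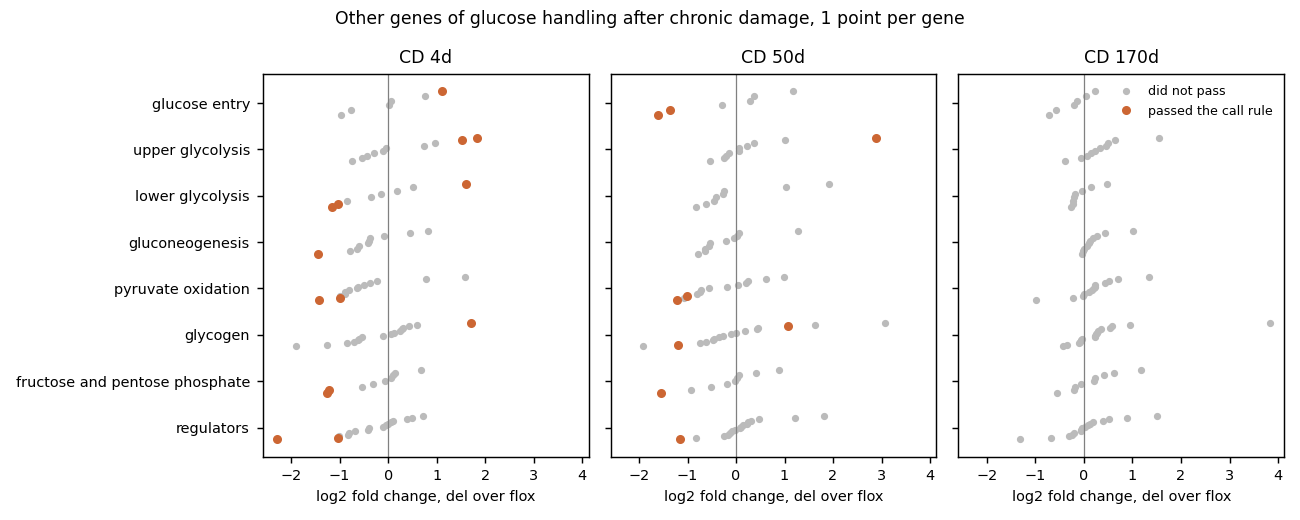
Log2 fold change in R&Z del relative to R&Z flox (horizontal axes) at 4, 50 and 170 days after CCl4 for the other genes of the pathway, with 1 point per gene, by list, and called genes in orange. At 4 days 5 of 88 tested genes were called higher and 9 lower, beside 1167 of all 11358 genes higher and 562 lower, and at 170 days 0 of 88.

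Of the 92 other genes of the pathway, 88 were tested after CCl4. At 4 days 5 rose and 9 fell, beside 1167 of all 11358 genes called higher and 562 lower. The median log2 fold change was -0.33 where that of all genes was 0.06. Among those that rose, beside G6pc3, were Pfkfb3 (1.82 ± 0.37, adjusted p = 0.0137) and Pfkfb4 (1.53), which set the level of an activator of glycolysis, Gys1 (1.70 ± 0.34, adjusted p = 0.0126), the glycogen synthase of muscle and most tissues, and Ldhb (1.62 ± 0.54, adjusted p = 0.0677), the lactate dehydrogenase of heart. The liver glycogen synthase Gys2 was at -0.11 (adjusted p = 0.843). Those that fell were Ldha (-1.15 ± 0.22, adjusted p = 0.0107), the lactate dehydrogenase of liver and muscle, Pgk1 (-1.04), Got1 (-1.44), Khk (-1.27), which phosphorylates fructose, Rpe (-1.22), Pdhb (-1.0), Pdk2 (-1.42 ± 0.23, adjusted p = 0.00548), Creb3l3 (-1.04) and Igfbp1 (-2.28 ± 0.68, adjusted p = 0.0455), which fasting induces and insulin represses. By list, pyruvate oxidation had 0 of 13 higher and 2 lower with a median of -0.63, gluconeogenesis without the members 0 of 10 higher and 1 lower with a median of -0.40, and glucose entry 1 of 6 higher and 0 lower with a median of 0.03. Upper glycolysis had 2 of 10 higher and glycogen 1 of 16, both with 0 lower. Lower glycolysis had 1 of 8 higher and 2 lower, fructose and pentose phosphate 0 of 9 higher and 2 lower, and regulators 0 of 16 higher and 2 lower.

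At 50 days, against 1 R&Z flox library whose spread is taken to be that of the other groups, Pfkfb4 (2.87) and Phka2 (1.07) were called higher. Those called lower included the glucose transporter Slc2a2 (233 CPM in R&Z flox against 94.0 and 122 in R&Z del, -1.37 ± 0.33). They also included the transporter Slc37a4, which feeds glucose-6-phosphatase (343 against 128 and 139, -1.60 ± 0.34). The others called lower were Gbe1 (-1.20), Mlx (-1.15), Pdhb (-1.22), Pdhx (-1.0) and Rpe (-1.54). With the 3 libraries of conflicting labels added, the calls over the 3 times went from 23 to 8. At 170 days 0 of 88 were called, with 11 higher and 1 lower at an unadjusted p under 0.05 in edgeR.

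In the other comparisons few pathway genes passed, beside the shares of all genes given above for each of them. At 1M, 2 of 88 were called higher. These were Pdp2, a phosphatase that activates pyruvate dehydrogenase (14.1 to 31.8 CPM against 59.9 to 76.1, 1.26 ± 0.31, adjusted p = 0.0860 in edgeR), and Pgm1, which had 0 to 2 counts in R&Z flox and 0 to 155 in R&Z del. At 3M and 7M 0 of 88 were called, with 6 and 8 higher and 2 and 0 lower at an unadjusted p under 0.05 in edgeR. At 7 days after PHx 1 of 87 passed higher and 2 lower. Txnip, which glucose induces, had 24.1 to 27 CPM in R&Z flox and 4.10 to 15.1 in R&Z del (-1.62 ± 0.57, unadjusted p = 0.00929, adjusted p = 0.609 in edgeR). Pfkp was at 0 in all 3 R&Z del libraries and at 0 to 152 counts in R&Z flox, which rests on the library of 152 counts (its mean at least 19.0-fold lower in R&Z del at a floor of 3 counts per library, and 1.22-fold without that library), and Ppp1r3g was at 0 in R&Z flox and at 0 to 17 counts in R&Z del. At 21 days 1 of 87 passed higher, which was Ppp1r3g at 55 to 122 counts against 0 in all 3 R&Z flox libraries (at least 29.9-fold higher at the same floor), and 0 lower. In R&Z flox at 4 days after CCl4 against 3M, 5 of 89 rose, Igfbp1 (3.04), Pygb (3.12), Pfkp (2.0), Pck2 and Gyg (1.15), and 0 fell.

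Sex was tested in the 25 undamaged libraries, 19 of males and 6 of females, where 0.483% of all genes were called higher in males and 0.436% lower. At 1M, where each genotype had 2 libraries of each sex, G6pc had 252, 298, 433 and 456 CPM in the males and 98.7, 155, 164 and 197 in the females. Every male was above every female there, and the share of all genes so apart by sex was not counted. At 7M the female (R&Z flox, batch 1) had 131 CPM, above the male control of its batch at 128 and below the R&Z del males at 179 and 224. At 3M the female (R&Z del, batch 1) had 158 CPM, below the males of its batch at 224 and 302. It lay above batch 2 males at 86.1 and 95.4 and below those at 161 and 163. In the fit over all undamaged libraries the log2 fold change of males over females was 1.23 ± 0.39, with an adjusted p of 0.252 in edgeR, which did not pass. Pklr had a log2 fold change of 0.58 ± 0.25 (adjusted p = 0.623 in edgeR), and the other 7 members had an adjusted p of 1. Of 88 pathway genes 0 were called by edgeR, with 6 higher and 2 lower at an unadjusted p under 0.05, and 0 with DESeq2.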

How the data were processed

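Liver RNA was sequenced with SMART-seq2 libraries. The authors deposited counts of reads per gene, raw and not normalized, as 1 table for the second batch and 1 file per library for the first. Reads were trimmed (Sickle in the study's methods, Trim Galore in the submitters' processing notes), and those notes name STAR 2.5.0a, featureCounts 1.5.0-p1 and 1.5.0-p3 and mm10. The 34490 symbols in both batches were joined. CPM was computed from library totals, and per kb from the merged exons on the primary chromosome in the files, which for Hk2 is 5659 bases where the files also count copies on alternative contigs (7972). The precision of a level is set by totals of 11721687 to 32168223 counts, and floors of 3 counts cover counting error only.

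Fits used edgeR 4.0.16 (quasi-likelihood, TMM) in R 4.3.3 with limma 3.58.1, with terms for group and, where they varied, sex and batch. Genes with CPM above 1 in at least 3 libraries (6 after CCl4) were tested, and p-values were adjusted over all genes of a fit (Benjamini-Hochberg). SE is the log2 fold change divided by the square root of F. The fits were tested on simulated data. Samples are separate animals only as far as the labels show, so p-values measure the spread between these samples, which may be technical.

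The members and lists were chosen with earlier results of these data known. The genes named are the 9 members, 3 counterparts (G6pc3, Fbp2, Pck2) and those called among 92 other pathway genes in 8 lists. Further genes of the lists are not reported here and were left out of every count over a list. Alternatives were DESeq2 1.42.0 (size factors, Wald test), edgeR's likelihood ratio test, other filters, males alone, each batch or time alone, hepatectomy libraries alone, models without sex and batch terms, an adjusted threshold after hepatectomy, a replicate block, libraries of conflicting labels put in groups, and each library left out. TMM-scaled CPM for members whose groups did not overlap was added after the data were seen. For 2 sample records no file was at hand, and they were not analysed here.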

Additional observations from a re-analysis of the deposited data

Results flagged for a closer look

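Single libraries stood apart in 6 of 57 sets, each of 1 gene in 1 group of 4 or 5 libraries, by the gap to the nearest library over the range of the set. The cutoffs would pass about 1 in 20 sets of normally distributed values. Low counts and groups that mix both batches are not such values, so nothing is read from 6 of 57 against that rate. Hk2 in R&Z del at 1M had 3.66 CPM in 1 library and 0 to 0.286 in the others (gap over range 0.92). Pkm was low in 1 R&Z flox library at 1M, with 4.02 CPM against 11.5 to 13 (0.837), and in 1 at 7M, with 3.68 CPM against 10.3 to 12.3 (0.760). G6pc3 was high in 1 R&Z flox library at 1M, with 21.1 CPM against 1.68 to 3.38 (0.912), and in 1 at 3M, with 20.3 CPM against 3.83 to 6.44 (0.841). Fbp2 in R&Z flox at 3M had 4 counts in 1 library and 0 or 1 in the others (0.730).

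The genotype difference changed between 4 and 170 days after CCl4 for 10 pathway genes in a test of that difference in edgeR (170 days minus 4 days, adjusted p under 0.1), where 870 of all genes passed and 2604 were at an unadjusted p under 0.05. The change in log2 fold change was 2.46 for Got1 (adjusted p = 0.0143), 1.95 for Pdk2 (adjusted p = 0.0223), 5.73 for Ppp1r3g (adjusted p = 0.0372), 1.95 for Dlat (adjusted p = 0.0455) and 3.78 for Igfbp1 (adjusted p = 0.0660). It was 0.98 for Gckr (adjusted p = 0.0799), 0.98 for Pfkm (adjusted p = 0.0818), 1.58 for Slc16a1 (adjusted p = 0.0818), 1.17 for Pdhb (adjusted p = 0.0872) and 0.94 for Pdha1 (adjusted p = 0.0999). All 10 were thus higher in R&Z del relative to R&Z flox at 170 days than at 4 days. Among them Dlat, Pdha1 and Pdhb are subunits of pyruvate dehydrogenase, and Pdk2 is a kinase that inhibits it. In CPM, G6pc and Pklr lay below R&Z flox in each R&Z del library at 4 days and above it in each at 170 days (in TMM-scaled CPM Pklr overlapped at 170 days), with ratios of the group means at 170 days of 1.48 and 1.65, and this difference between the times was not tested.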

How the results depend on the processing

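No member past the rule changed direction under any alternative run. The log2 fold change of Pklr at 50 days went from -1.75 to -0.80 and that of Fbp1 from -1.39 to -0.50 with the 3 libraries of conflicting labels added, and Pck1, not past the rule, went from -0.49 to 0.55. Counts of pathway genes called moved more. For R&Z del against R&Z flox after CCl4, 23 calls became 8 with these 3 libraries, 36 with DESeq2's Wald test, 36 with the likelihood ratio test and 46 with no filter. With 1 library left out they ranged from 7 (without R&Z flox 4 days replicate 1) to 34, and were 13 without R&Z flox 4 days replicate 2 or R&Z del 50 days replicate 1 and 12 without R&Z del 4 days replicate 2. Without the R&Z flox library at 50 days only 4 and 170 days could be compared, with 14 calls as before. For CCl4 against undamaged, 5 calls became 11 with the Wald test, 9 with the likelihood ratio test and 21 with no filter, and 0 to 6 with 1 library left out. After hepatectomy, 4 calls became 0 at an adjusted p under 0.1, 7 with hepatectomy libraries alone, males alone or no filter, and 3 to 8 with 1 library left out. For hepatectomy against 1M, 0 calls became 6 with the Wald test, 1 in males alone and 4 with no filter, and stayed at 0 to 0 with 1 library left out. In undamaged livers, 2 calls became 1 in batch 2 alone, 5 with the Wald test or no filter, 0 in males alone or without sex and batch terms, and 0 to 3 with 1 library left out. For sex, 0 members passed and 1 did with the Wald test and with no filter, which was G6pc (adjusted p = 0.0296 with DESeq2 and 0.0132 with edgeR and no filter), and 0 to 0 with 1 library left out. The causes were not tested. In batch 1 alone the log2 fold change at 3M was 2.85 for Pck1 and -3.62 for Pdk4, from 1 R&Z del library, a female, whose Pdk4 CPM lay between those of its male controls. Of the members' mean CPM, 25 moved by more than 1 SD (with 1 library, beyond its 95% binomial interval) with TMM-scaled library sizes and 155 did not. The members whose groups were apart went from 5 to 3 at 7 days after hepatectomy and from 4 to 3 at 170 days in TMM-scaled CPM. At 170 days G6pc and Pdk4 stayed apart, Aldoa and Pklr overlapped, and Fbp1 became apart, lower in R&Z del.

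With the replicate number as a block, the calls were 19 after CCl4, 4 after hepatectomy and 2 in undamaged livers. Of 20 pairs of libraries with the same number, 5 correlated above 0.1 in their deviations (range -0.36 to 0.41), so the samples shared only a number and this pairing was not used. Levels near the floor of 3 counts, as for Hk1 and Hk2 in batch 2, limit those fold changes.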

Other observations

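The 5 libraries that the labels put in no group, all of batch 1, had G6pc at 92.9 to 165 CPM, Pck1 at 348 to 1260.5, Fbp1 at 1276 to 2140.2, Pklr at 75.8 to 179 and Aldoa at 88.7 to 139. Pkm was at 8.56 to 19.0 CPM in them, Hk1 at 1.97 to 4.19, Hk2 at 0.548 to 1.75 and Pdk4 at 0.693 to 6.43.

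Over the 30 libraries of batch 2, the genes most like 3 members were sought by Pearson's r of log2 CPM among 8490 genes with a mean CPM above 5, as a description of libraries that share batch and depth. Pkm was most like Sparc (0.740), Pam (0.730) and Csf1r (0.720), of which Sparc is a matrix protein of stromal cells and Csf1r a receptor of macrophages. Pklr was most like Nup205 (0.654), Ubxn7 (0.628) and Me1 (0.622), the malic enzyme of lipid synthesis. G6pc was most like Derl1 (0.639), F11 (0.608) and Dnajc22 (0.606). Between members the values were lower, from -0.35 for Aldoa with Pck1 to 0.47 for Pkm with Fbp1.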
